A study of Homo sapiens with 12 samples.

Results

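The genes described here carry the Hedgehog signal from its ligand to its transcription factors. They are the ligand gene SHH, the decoy receptor gene HHIP, the receptor gene PTCH1, the transducer genes SMO and GPR161, the inhibitor gene SUFU, and the transcription factor genes GLI1, GLI2 and GLI3. The 9 genes were taken by symbol from a table of read counts for 25049 genes. Counts were found for 8 of the 9, and all 8 passed the filter on low counts, as did 21974 genes in all. SMO is not analysed here.

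The cells were MDA-MB-231b, a bone-tropic derivative of the triple-negative breast cancer line MDA-MB-231, obtained by recovering the cells from mouse bone marrow after intratibial and then intracardiac passage. They had been transduced with lentiviral CRISPR-Cas9 reagents carrying a guide RNA against GLI2, labelled GLI2 KO, or a non-targeted guide, labelled WT. Each genotype was kept for 2 days in DMSO or in 50 nM paclitaxel, a drug that stabilises microtubules, which gave 4 groups of 3 samples of polyadenylated RNA. All groups therefore share the bone passage, and both genotypes share the transduction. The labels do not say whether a genotype was 1 clone or a pool, or whether its 3 samples came from separate cultures. The p-values therefore measure the spread among these samples only, and that spread may be technical. The library numbers in the labels run from 1 to 6 for WT and from 7 to 12 for GLI2 KO samples. Genotype and library number therefore cannot be told apart.

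Hedgehog ligands bind PTCH1 and so release SMO, which otherwise stays silenced. Without that release, protein kinase A, promoted in the primary cilium by GPR161, together with SUFU turns GLI3 and GLI2 into repressor or inactive forms. Active SMO lets GLI2 work as an activator, which switches on GLI1, PTCH1 and HHIP, so that these serve as textbook targets as well as components. In breast cancer that spreads to bone, GLI2 is known for driving the gene of parathyroid hormone-related protein.

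Depth ran from 83230948 to 109018776 counts per sample. Levels are given as CPM (a gene's counts relative to the sample's total) after scaling by the trimmed mean of M-values (TMM), and differences as log2 fold changes with an approximate SE and a Benjamini-Hochberg adjusted p from edgeR's quasi-likelihood test over all 21974 genes, called below 0.05. Marker levels in this paragraph are instead CPM by library totals, without TMM. The 8 markers of this mesenchymal line, among them VIM and CD44, summed to between 5640 and 6927 CPM. Of 10 luminal and hormone receptor genes 9 had counts, summing to 549 to 788 CPM, and PGR, the progesterone receptor gene, lay at 0 to 0.012 CPM in WT samples but at 0.763 to 2.82 CPM in GLI2 KO samples. Of 7 haematopoietic markers 4 had counts, summing to at most 3.46 CPM; their range was 0.29 to 0.368 CPM in WT DMSO, 1.09 to 1.45 CPM in WT paclitaxel, 0.741 to 0.924 CPM in GLI2 KO DMSO and 2.87 to 3.46 CPM in GLI2 KO paclitaxel, and their part in the results was not tested. In GLI2 KO DMSO replicate 3, 2.3% of 13800 genes lay over 0.5 on the log2 scale away from the mean of its fellow replicates, against 0.217% to 1.09% in the other libraries.

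One promoter stretch is shown because it alone, among the windows examined for these genes, holds the GLI consensus. The letters searched were GACCACCCA on one strand and TGGGTGGTC on the other, with no mismatch, in RefSeq windows of 300 bases reaching from 250 before to 50 after a start (build GRCh38.p14). Of the members, 6 had entries, with 15 windows between them; GLI1 and GLI3 had none. The match lies 172 bases before one of the 5 PTCH1 starts, on chromosome 9 at base 95509266 of the minus strand. The 250 upstream bases, chr9:95509267-95509516, lie inside the PTCH1 gene as GENCODE 29 draws it and overlap no annotated exon. They read as follows, 5′ to 3′ on the minus strand, with the match in capitals.

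PTCH1 upstream: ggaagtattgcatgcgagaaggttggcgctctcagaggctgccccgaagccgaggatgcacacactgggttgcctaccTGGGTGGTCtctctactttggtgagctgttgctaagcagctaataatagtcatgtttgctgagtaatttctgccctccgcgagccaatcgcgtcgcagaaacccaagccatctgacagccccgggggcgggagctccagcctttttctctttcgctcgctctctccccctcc

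A match was found in 83 of all 35116 windows of this length in RefSeq, a share of 0.236%. By gene the share was 81 of 27305, or 0.297%. A match describes letters and not a bound site. The response of PTCH1 itself is given below with the receptors.

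GLI2, the targeted gene, is described first. It lies on chromosome 2 (120735623-120992653, plus strand, GRCh38). In DMSO the WT samples held 10.4, 11.4 and 10.6 CPM and the GLI2 KO samples 9.28, 8.23 and 10.1 CPM. In paclitaxel the WT samples held 6.42, 5.65 and 4.97 CPM and the GLI2 KO samples 3.97, 4.14 and 4.39 CPM. No sample of one genotype reached the range of the other at the same treatment, yet the GLI2 transcript was still plainly present in cells carrying the guide against it. These are counts over the whole gene and the cut site is not in the sources used here, so they do not test the edit.

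GLI2 was lower in GLI2 KO than in WT cells by 14.6% in DMSO (log2 fold change -0.23 ± 0.08 (SE), edgeR adjusted p = 0.0253) and by 26.4% in paclitaxel (-0.44 ± 0.09, 0.000243). The DMSO call was lost without GLI2 KO DMSO replicate 1 (-0.23, edgeR adjusted p = 0.0577), without GLI2 KO DMSO replicate 2 (-0.15, 0.183) and without WT DMSO replicate 2 (-0.19, 0.11). Without GLI2 KO DMSO replicate 3, the library furthest from its group, it was -0.30 (edgeR adjusted p = 0.00378). The drug effects were the larger values. Under paclitaxel GLI2 fell by 47.4% in WT cells (-0.93 ± 0.08, edgeR adjusted p = 7.45e-10), and in GLI2 KO cells it fell by 54.6% (-1.14 ± 0.09, 3.94e-11). The difference between those drug effects was -0.21 ± 0.12 and did not pass (edgeR adjusted p = 0.269).

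**Figure D1:**
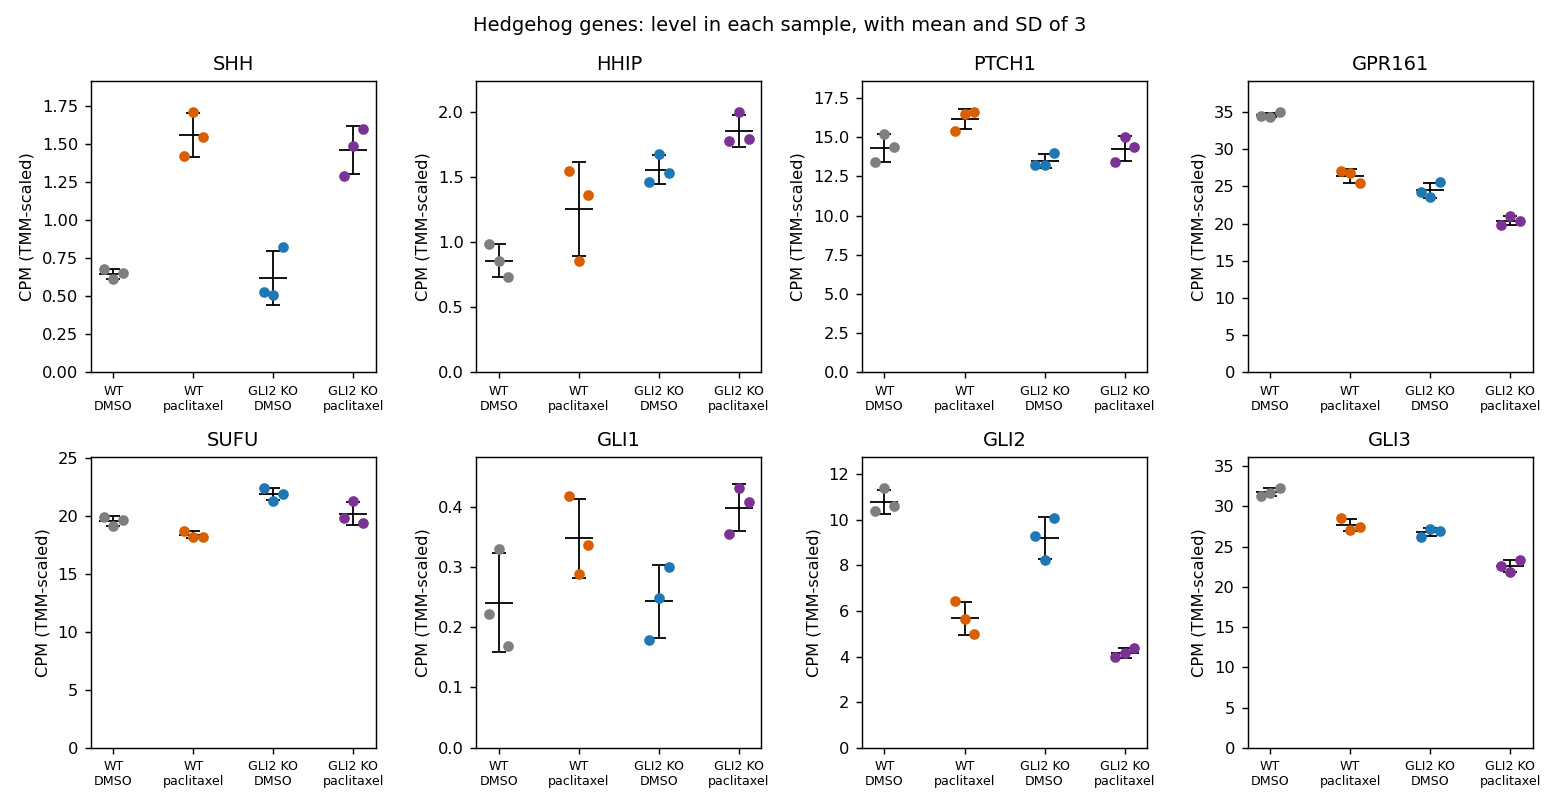
TMM-scaled CPM of 8 Hedgehog genes, 1 panel per gene with its own linear axis from 0; points are samples, the long tick is the mean of 3 and the bar its SD. GLI2 lies at 8.23 to 11.4 CPM in the DMSO samples and at 3.97 to 6.42 CPM in the paclitaxel samples, while SHH lies at 0.51 to 0.822 and at 1.29 to 1.71 CPM.

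Across the 8 genes, paclitaxel called 3 higher, 3 lower and 2 in neither direction in WT cells, where 34.6% of all tested genes were called higher and 32.1% lower. In GLI2 KO cells it called 2 higher, 4 lower and 2 in neither direction, beside 33.0% higher and 32.2% lower among all genes. Those shares of members lie near the background, so the counts say nothing particular about Hedgehog genes. The direction of single genes is what the data add. Paclitaxel libraries held more detected genes, 24923 to 24985 each, against 23712 to 24125 per DMSO library. Whether rare transcripts such as SHH rose beyond other genes of like level was not tested. SHH rose and GLI2, GLI3 and GPR161 fell in both genotypes, and PTCH1 and HHIP were called higher in WT cells alone, with no difference between the genotypes that passed a test.

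The choice of scaling matters for the small paclitaxel changes. Relative to TMM, upper-quartile factors moved the median of all paclitaxel fold changes up by 0.13 in WT and 0.12 in GLI2 KO cells, and library totals moved it up by 0.16 and 0.18. The changes of SHH and GLI2 are several times that shift. Those of GLI3, SUFU and PTCH1 are of its size. The shift moves genes within and outside a list, and shares of all genes are given for TMM only. List counts with other factors therefore have no background beside them.

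SHH encodes the secreted ligand Sonic hedgehog (chromosome 7, 155799986-155812273, minus strand). WT samples held 0.676, 0.611 and 0.655 CPM in DMSO and 1.42, 1.71 and 1.55 CPM in paclitaxel. GLI2 KO samples held 0.526, 0.51 and 0.822 CPM in DMSO and 1.29, 1.49 and 1.6 CPM in paclitaxel. Every paclitaxel sample lay above every DMSO sample, whichever the genotype, and GLI2 KO DMSO replicate 3 was the highest of the DMSO samples. The rise was 2.4-fold in WT cells (log2 fold change 1.26 ± 0.17, edgeR adjusted p = 3.4e-07) and 2.35-fold in GLI2 KO cells (1.23 ± 0.17, 7.2e-07). Without GLI2 KO DMSO replicate 3 the rise in GLI2 KO cells was 1.49 (edgeR adjusted p = 2.69e-08). By genotype the difference was -0.06 ± 0.19 in DMSO (edgeR adjusted p = 0.841) and -0.09 ± 0.15 in paclitaxel (0.648), and the samples overlapped. SHH stayed a rare transcript, at 41 to 74 reads per GLI2 KO DMSO sample and 126 to 157 per WT paclitaxel sample.

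Of the 11 other genes of ligand production and release 10 were tested, and paclitaxel called 3 higher and 3 lower in each genotype. With upper-quartile factors and with library totals alike these became 5 higher and 1 lower in WT cells and 3 higher and 0 lower in GLI2 KO cells. Among all tested genes 34.6% were called higher and 32.1% lower in WT cells with TMM, and 33.0% and 32.2% in GLI2 KO cells. The TMM counts of the list lie near those shares. IHH, SCUBE2 and GPC5, which averaged under 1 CPM, are named here after their values were seen. IHH, the gene of the ligand Indian hedgehog, stood at 0.106, 0 and 0.0903 CPM in WT DMSO samples and 0.316, 0.41 and 0.375 CPM in WT paclitaxel samples. It rose in WT cells (log2 fold change 2.40 ± 0.51, edgeR adjusted p = 0.000336) and in GLI2 KO cells (1.83 ± 0.52, 0.0045). SCUBE2, a secreted factor that helps release the ligand, went from 0.29, 0.415 and 0.44 CPM to 1.4, 1.15 and 1.23 CPM in WT samples (1.74 ± 0.19, edgeR adjusted p = 2.08e-08), and rose in GLI2 KO cells by 1.23 ± 0.20 (5.53e-06). SHH, IHH and SCUBE2 thus rose in both genotypes, while the calls of the list with TMM lay near the shares of all genes. Whether these rises exceed those of other rare transcripts was not tested. DHH, the remaining Hedgehog ligand gene, is also named after its values were seen. It was not called in WT (-0.21, edgeR adjusted p = 0.331) or GLI2 KO cells (-0.17, 0.445). SCUBE3 was not called under paclitaxel either, at -0.02 (edgeR adjusted p = 0.855) and -0.10 (0.406).

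GPC5, which encodes a cell-surface glypican, stood at 0.0483, 0.0977 and 0.0678 CPM in WT and 0.846, 0.624 and 0.767 CPM in GLI2 KO samples in DMSO. It was higher in GLI2 KO cells there by 3.39 ± 0.29 (edgeR adjusted p = 5.68e-10) and under paclitaxel by 1.14 ± 0.22 (0.000163). Paclitaxel raised GPC5 in WT cells (2.08 ± 0.34, edgeR adjusted p = 6.94e-06), and its effect in GLI2 KO cells was -0.17 ± 0.20 (0.469). HHAT, whose enzyme attaches palmitate to the ligand, fell by 0.32 in WT (edgeR adjusted p = 3.76e-05), and in GLI2 KO cells it fell by 0.25 (0.000757) on the log2 scale. DISP1, which encodes the transporter that releases the ligand, fell by 0.16 and 0.24 (edgeR adjusted p = 0.0162 and 0.000664). With upper-quartile factors neither paclitaxel change of DISP1 was called, at -0.02 and -0.12, nor was that of HHAT in GLI2 KO cells, at -0.12. The DISP1 fall in WT cells was also lost without WT DMSO replicate 1 (-0.15, edgeR adjusted p = 0.0528) or replicate 3 (-0.12, 0.106). SCUBE3, from a family of ligand release factors, was lower in GLI2 KO cells by 0.47 in DMSO (edgeR adjusted p = 0.000386) and by 0.55 in paclitaxel (5.52e-05).

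PTCH1 encodes the ligand receptor that restrains SMO (chromosome 9, 95442980-95517057, minus strand). WT samples held 13.4, 15.2 and 14.4 CPM in DMSO and 15.4, 16.5 and 16.6 CPM in paclitaxel. GLI2 KO samples held 13.2, 13.2 and 14 CPM in DMSO and 13.4, 15 and 14.4 CPM in paclitaxel. The groups lie close together, and only WT paclitaxel stands above the 3 others. Paclitaxel raised PTCH1 by 13.2% in WT cells (log2 fold change 0.18 ± 0.06, edgeR adjusted p = 0.00694), a call lost without WT DMSO replicate 1 (0.13, edgeR adjusted p = 0.0694). In GLI2 KO cells the change was 0.08 ± 0.06 and did not pass (edgeR adjusted p = 0.202), but it was called with upper-quartile factors (0.21), library totals (0.26) and a minimum count of 50 (0.14). PTCH1 was lower in GLI2 KO than in WT cells under paclitaxel, by 11.9% (-0.18 ± 0.06, edgeR adjusted p = 0.0091), which was lost without GLI2 KO paclitaxel replicate 1 (-0.14, 0.0691). The drug effects did not differ between genotypes past the test (-0.10, edgeR adjusted p = 0.493). A second transcript, AL161729.1, shares 4.29% of the PTCH1 exon bases.

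HHIP encodes a membrane protein that binds and holds back the ligand (chromosome 4, 144646021-144745271, plus strand). In DMSO it stood at 0.985, 0.855 and 0.734 CPM in WT and at 1.46, 1.68 and 1.53 CPM in GLI2 KO samples. In paclitaxel it stood at 1.55, 0.854 and 1.36 CPM in WT and at 1.78, 2 and 1.79 CPM in GLI2 KO samples. The GLI2 KO samples lay above all WT samples of the same treatment, and WT paclitaxel replicate 2 fell back into the DMSO range. HHIP was 1.81-fold higher in GLI2 KO cells in DMSO (log2 fold change 0.85 ± 0.17, edgeR adjusted p = 0.000231) and 1.48-fold higher in paclitaxel (0.57 ± 0.16, 0.00467). The latter call was lost without WT paclitaxel replicate 2 (0.36, edgeR adjusted p = 0.0526). Thus 2 genes counted as textbook GLI targets, HHIP and PTCH1, differed by genotype under paclitaxel in opposite directions.

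Paclitaxel raised HHIP in WT cells (0.54 ± 0.18, edgeR adjusted p = 0.00877), a call lost without WT DMSO replicate 3 (0.44, 0.0503) or WT paclitaxel replicate 1 (0.37, 0.084). In GLI2 KO cells the value was 0.25 ± 0.16 (edgeR adjusted p = 0.156), called with upper-quartile factors (0.38) and library totals (0.43). The antisense gene HHIP-AS1 and a further annotated RNA share 2.97% of HHIP's exon bases, and no strand setting is given in the sources used here, so reads of HHIP and HHIP-AS1 cannot be told apart there.

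Of the 5 other receptor and co-receptor genes 4 were tested, and paclitaxel called 3 of them higher and 1 lower in both genotypes. Among all tested genes 34.6% were called higher and 32.1% lower in WT cells, and 33.0% and 32.2% in GLI2 KO cells. The gene of this list that fell was CDON, a co-receptor that helps the ligand bind PTCH1. It stood at 23.9, 24.2 and 24.7 CPM in WT DMSO samples and at 34.1, 34.8 and 37.3 CPM in GLI2 KO DMSO samples, so the genotypes were well apart. Paclitaxel took it to 20.8, 20.9 and 20.8 CPM in WT and to 25.9, 27 and 26.1 CPM in GLI2 KO samples. CDON fell by 0.22 in WT (edgeR adjusted p = 4.96e-05), and in GLI2 KO cells it fell by 0.43 (1.06e-09) on the log2 scale, although the WT fall was not called with upper-quartile factors (-0.09) or library totals (-0.06). Its partner BOC rose with the drug, by 0.28 in WT (edgeR adjusted p = 0.0017) and 0.20 in GLI2 KO cells (0.0238), and was lower in GLI2 KO cells by 0.27 in DMSO (0.00687) and 0.34 in paclitaxel (0.000392). CDON and BOC thus went opposite ways by drug and by genotype. The BOC rise in GLI2 KO cells was lost without GLI2 KO DMSO replicate 1 (0.19, edgeR adjusted p = 0.0706) or replicate 2 (0.20, 0.0528), and without GLI2 KO paclitaxel replicate 2 (0.19, 0.0714) or replicate 3 (0.19, 0.0676). Its genotype difference in DMSO was lost without WT DMSO replicate 3 (-0.22, edgeR adjusted p = 0.0514).

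GPR161 encodes a ciliary G protein-coupled receptor that keeps protein kinase A active and so favours the GLI3 repressor (chromosome 1, 168079543-168137667, minus strand). Its samples were tight, at 34.5, 34.4 and 35 CPM in WT DMSO and 27.1, 26.8 and 25.4 CPM in WT paclitaxel. GLI2 KO samples held 24.3, 23.6 and 25.6 CPM in DMSO and 19.8, 21 and 20.4 CPM in paclitaxel. WT DMSO was highest and GLI2 KO paclitaxel lowest, with no overlap in any of the 4 comparisons. GPR161 was 29.2% lower in GLI2 KO cells in DMSO (log2 fold change -0.50 ± 0.04, edgeR adjusted p = 2.42e-10) and 22.7% lower in paclitaxel (-0.37 ± 0.04, 5.97e-08). GLI2 itself was lower by 14.6% in DMSO, as given above.

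Paclitaxel lowered GPR161 by 23.6% in WT cells (-0.39 ± 0.04, edgeR adjusted p = 8.63e-09), and in GLI2 KO cells it fell by 16.6% (-0.26 ± 0.04, 7.49e-06). With library totals the fall in GLI2 KO cells was -0.08 and not called (edgeR adjusted p = 0.1). The difference of the drug effects was 0.13 ± 0.06, with an unadjusted p of 0.0415 and an edgeR adjusted p of 0.169.

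**Figure D2:**
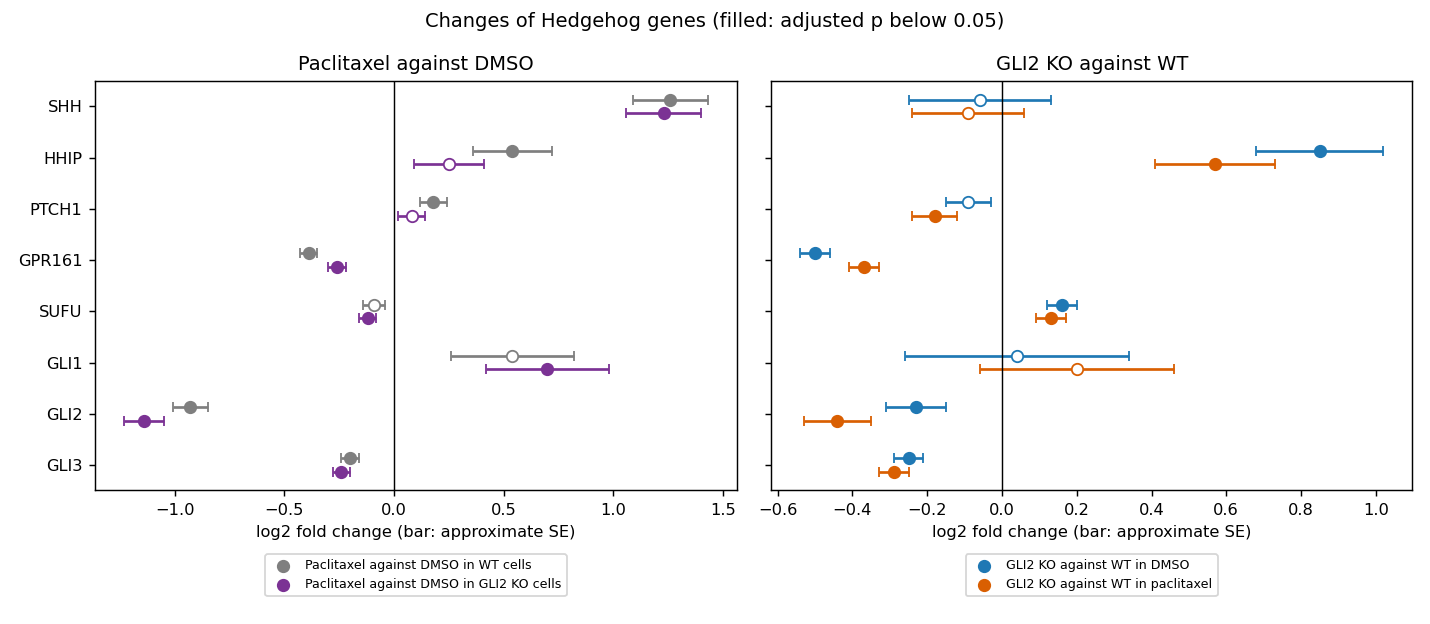
Log2 fold changes of 8 Hedgehog genes for paclitaxel against DMSO (left) and GLI2 KO against WT (right); bars are the approximate SE, and filled points have an edgeR adjusted p below 0.05. For paclitaxel SHH lies at 1.26 and 1.23 and GLI2 at -0.93 and -1.14, and in the genotype panel HHIP (0.85 and 0.57) is highest, with GPR161 (-0.50) lowest in DMSO and GLI2 (-0.44) in paclitaxel.

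Of 20 tested genes among the other ciliary transducers, paclitaxel called 4 higher and 13 lower in WT cells, with a median of -0.28, and 2 higher and 11 lower in GLI2 KO cells, with a median of -0.17. The medians over all genes were 0.03 and 0.02, with 34.6% called higher and 32.1% lower in WT cells and 33.0% and 32.2% in GLI2 KO cells. In GLI2 KO cells the split depended on the scaling, at 8 higher and 7 lower with library totals. IFT88, a subunit of the intraflagellar transport complex that builds cilia, fell by 0.59 in WT (edgeR adjusted p = 1.65e-11), and in GLI2 KO cells it fell by 0.54 (1.76e-10). EVC, which relays the SMO signal at the ciliary base, fell by 0.46 (edgeR adjusted p = 7.21e-11) and 0.58 (9.23e-13). By genotype the same list had 8 higher and 4 lower in DMSO, and 11 higher and 2 lower in paclitaxel. Among all tested genes 22.0% were higher and 19.6% lower in DMSO, and 23.4% and 22.2% in paclitaxel. TMEM67, a protein of the ciliary transition zone, went from 16.1, 17.3 and 17.2 CPM in WT to 26.6, 26.4 and 27.7 CPM in GLI2 KO samples in DMSO (0.67 ± 0.04, edgeR adjusted p = 2.61e-12). ARRB1, an arrestin reported to help SMO reach the cilium, was higher by 0.87 ± 0.06 (edgeR adjusted p = 1.58e-10). GPR161 and IFT88 were thus lower in GLI2 KO cells while TMEM67, ARRB1 and EVC were higher.

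SUFU binds GLI proteins and holds them out of the nucleus (chromosome 10, 102503987-102633535, plus strand). WT samples held 19.9, 19.1 and 19.6 CPM in DMSO and 18.7, 18.2 and 18.2 CPM in paclitaxel. GLI2 KO samples held 22.4, 21.3 and 21.9 CPM in DMSO and 19.8, 21.3 and 19.4 CPM in paclitaxel. At each treatment the GLI2 KO samples were above the WT samples, by small margins. SUFU was 11.8% higher in GLI2 KO cells in DMSO (log2 fold change 0.16 ± 0.04, edgeR adjusted p = 0.00509) and 9.79% higher in paclitaxel (0.13 ± 0.04, 0.016). The paclitaxel call was lost with upper-quartile factors (0.10, edgeR adjusted p = 0.0699), without GLI2 KO paclitaxel replicate 2 (0.10, 0.13) and without WT paclitaxel replicate 2 (0.13, 0.0588).

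The drug effect on SUFU was -0.09 ± 0.05 in WT cells (edgeR adjusted p = 0.0835) and -0.12 ± 0.04 in GLI2 KO cells (0.0262). The latter turned to 0.01 with upper-quartile factors and 0.06 with library totals, and it was not called with a minimum count of 50 (-0.06) or with only the samples compared (-0.09). It was also lost without GLI2 KO DMSO replicate 1 (-0.10, edgeR adjusted p = 0.0947), GLI2 KO paclitaxel replicate 1 (-0.11, 0.0689) or GLI2 KO paclitaxel replicate 3 (-0.09, 0.114). No direction of SUFU under paclitaxel can be taken from these data.

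The kinases and phosphatases that act on SMO or GLI proteins were mostly called lower under paclitaxel, at 14 lower and 2 higher of 18 in WT cells and 11 lower and 2 higher in GLI2 KO cells. With library totals these became 8 lower and 4 higher, and 5 lower and 7 higher. With TMM 32.1% of all tested genes were lower and 34.6% higher in WT cells, and 32.2% and 33.0% in GLI2 KO cells. PRKACA, a catalytic subunit of protein kinase A, fell under each scaling tried. Its WT samples went from 65.2, 64.6 and 65.2 CPM to 42.3, 41.1 and 43.4 CPM, and its GLI2 KO samples from 66.9, 68.2 and 70.9 CPM to 42.2, 38.7 and 40.6 CPM. The falls were 34.9% (-0.62 ± 0.04, edgeR adjusted p = 1.79e-13) and 41% (-0.76 ± 0.04, 3.63e-15). PRKACB, which encodes another catalytic subunit, did not fall in WT cells (-0.01, edgeR adjusted p = 0.838) and was called higher there with library totals (0.14, 0.042). In GLI2 KO cells PRKACB fell by 0.17 (edgeR adjusted p = 0.00781), a call lost with upper-quartile factors (-0.04, 0.525). PPP2CA, a catalytic subunit of protein phosphatase 2A, fell by 0.69 (edgeR adjusted p = 4.64e-13) and 0.61 (5.74e-12), and GRK2, a kinase of active SMO, by 0.53 (9.59e-13) and 0.55 (4.15e-13). By genotype 7 of the 18 were higher and 3 lower in DMSO, but 6 higher and 6 lower with upper-quartile factors and 5 higher and 6 lower with library totals. Over all tested genes 22.0% were higher and 19.6% lower in DMSO with TMM. The lower genes of the list included GRK3, at 18.2, 17.5 and 17.6 CPM in WT and 9.52, 10.4 and 9.97 CPM in GLI2 KO samples (-0.84 ± 0.05, edgeR adjusted p = 7.81e-13). PRKACB was higher in GLI2 KO cells, by 0.43 in DMSO (edgeR adjusted p = 5.06e-07) and 0.28 in paclitaxel (0.000118).

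Partners and degradation factors of the GLI proteins other than SUFU gave 12 lower and 3 higher of 16 in WT cells under paclitaxel and 10 lower and 3 higher in GLI2 KO cells. Library totals left 3 lower and 5 higher, and 3 lower and 6 higher. In WT cells the list median moved from -0.12 with TMM to 0.04 with library totals, beside a shift of 0.16 for all genes. All tested genes stood at 32.1% lower and 34.6% higher in WT cells with TMM, and at 32.2% and 33.0% in GLI2 KO cells. EP300, a histone acetyltransferase and coactivator, rose from 101, 104 and 104 CPM to 144, 148 and 154 CPM in WT samples (0.53 ± 0.03, edgeR adjusted p = 1.24e-12). SKP1, a subunit of ubiquitin ligases that process GLI proteins, fell by 0.36 (edgeR adjusted p = 6.33e-06). By genotype the list held 5 higher and 5 lower in DMSO, or 3 higher and 5 lower with library totals. Over all tested genes 22.0% were higher and 19.6% lower in DMSO with TMM. Among the lower genes of the list was ZIC2, a zinc-finger factor that can bind GLI proteins, which was lower by 0.33 (edgeR adjusted p = 1.61e-07). HDAC1 was higher in GLI2 KO cells in DMSO by 0.43 (edgeR adjusted p = 2.25e-12).

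GLI3, the main repressor of the pathway (chromosome 7, 41960950-42237870, minus strand), stood at 31.3, 31.7 and 32.3 CPM in WT DMSO and 28.5, 27.1 and 27.5 CPM in WT paclitaxel. GLI2 KO samples held 26.2, 27.2 and 27 CPM in DMSO and 22.6, 21.8 and 23.4 CPM in paclitaxel. As with GPR161, WT DMSO was highest and GLI2 KO paclitaxel lowest. GLI3 was lower in GLI2 KO cells by 15.7% in DMSO (log2 fold change -0.25 ± 0.04, edgeR adjusted p = 1.37e-05) and by 18.4% in paclitaxel (-0.29 ± 0.04, 1.13e-06). Paclitaxel lowered it by 12.8% in WT cells (-0.20 ± 0.04, edgeR adjusted p = 0.000105) and in GLI2 KO cells it fell by 15.6% (-0.24 ± 0.04, 9.07e-06). The WT fall was not called with upper-quartile factors (-0.06, edgeR adjusted p = 0.154) or library totals (-0.04, 0.386), nor the GLI2 KO fall with library totals (-0.07, 0.155).

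GLI1, an activator that is itself switched on by the pathway (chromosome 12, 57460135-57472262, plus strand), was the rarest of the 8. It had 15 to 27 reads per WT DMSO sample and 26 to 37 per WT paclitaxel sample. GLI2 KO samples had 14 to 27 in DMSO and 32 to 45 in paclitaxel. As CPM, WT samples held 0.222, 0.33 and 0.169 in DMSO and 0.418, 0.288 and 0.336 in paclitaxel, which overlap. GLI2 KO samples held 0.179, 0.249 and 0.3 CPM in DMSO and 0.355, 0.431 and 0.408 CPM in paclitaxel, which do not.

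The GLI1 drug effect was 0.54 ± 0.28 in WT cells (edgeR adjusted p = 0.0944) and 0.70 ± 0.28 in GLI2 KO cells (0.0295). The WT value was called with upper-quartile factors (0.67), library totals (0.70) and without WT DMSO replicate 2 (0.81, edgeR adjusted p = 0.0283). The GLI2 KO value was not called by DESeq2 (0.71, adjusted p = 0.0575). It was lost without GLI2 KO DMSO replicate 1 (0.53, edgeR adjusted p = 0.13) or replicate 2 (0.71, 0.0573), and without GLI2 KO paclitaxel replicate 2 (0.64, 0.0839) or replicate 3 (0.68, 0.0682). By genotype GLI1 differed by 0.04 ± 0.30 in DMSO (edgeR adjusted p = 0.937) and 0.20 ± 0.26 in paclitaxel (0.567).

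By genotype, 2 of the 8 members were higher, 3 lower and 3 in neither direction in DMSO, beside 22.0% of all genes higher and 19.6% lower. In paclitaxel 2 were higher, 4 lower and 2 in neither direction, beside 23.4% higher and 22.2% lower. HHIP and SUFU were called higher and GLI2, GLI3 and GPR161 lower at both treatments. The difference of the drug effects called no member in either direction, while 6.56% of all genes were called higher and 6.93% lower. GPR161 alone had an unadjusted p below 0.05 in edgeR, and DESeq2 also called none. The 2 drug comparisons share no samples, but each genotype comparison shares samples with both.

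Levels between genes are compared per kilobase of annotated exon. In WT DMSO samples GPR161 was highest, at 3.08 ± 0.0287 CPM per kb (SD, n = 3), before GLI3 at 2.9 ± 0.0463 and SUFU at 2.85 ± 0.056, whose ranges overlap. GLI2 followed at 1.47 ± 0.073 and PTCH1 at 0.864 ± 0.0541. SHH lay at 0.128 ± 0.00661, and HHIP, at 0.0711 ± 0.0104, and GLI1, at 0.0572 ± 0.0195, overlapped at the bottom. Among the genes that restrain the pathway, GPR161, GLI3 and SUFU were thus more abundant as RNA than SHH, while HHIP was less abundant than SHH.

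That order changed with the drug and the genotype label. In WT paclitaxel SUFU led with 2.68 ± 0.0441 CPM per kb, and PTCH1, at 0.976 ± 0.0399, stood above GLI2, at 0.774 ± 0.0984 (SD, n = 3). In GLI2 KO DMSO samples SUFU led with 3.18 ± 0.0853 and GPR161, behind GLI3, lay at 2.18 ± 0.0899. There HHIP, at 0.129 ± 0.00916, and SHH, at 0.123 ± 0.0349, overlapped. In GLI2 KO paclitaxel samples PTCH1, at 0.86 ± 0.0497, was again above GLI2, at 0.567 ± 0.0287. PTCH1 thus stood above GLI2 in both paclitaxel groups and below it in both DMSO groups. With the length of the longest transcript in place of all exons, GLI2 (1.21 to 1.48 CPM per kb) and PTCH1 (1.24 to 1.32) overlapped in GLI2 KO DMSO samples.

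The 3 GLI genes can be read as one pool of transcripts per length. GLI3 made up 65.6 ± 1.41% of it in WT DMSO, GLI2 33.2 ± 1% and GLI1 1.29 ± 0.417% (SD, n = 3). In WT paclitaxel the shares were 74.8 ± 2.02% for GLI3, 22.8 ± 1.89% for GLI2 and 2.43 ± 0.355% for GLI1. GLI2 KO samples gave GLI2 shares of 34.2%, 30.6% and 35.1% in DMSO and 20.1%, 21.2% and 21.1% in paclitaxel. The GLI2 share was thus lower in every paclitaxel sample than in any DMSO sample, and the genotypes overlapped at both treatments.

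The GLI2 share was lower under paclitaxel by 10.4 points in WT and 12.5 points in GLI2 KO cells. An exact two-sided permutation test gave p = 0.1 for each, the smallest that 3 against 3 samples allow, and 0.2 after adjustment over 4 comparisons. By genotype the difference was 0.155 points in DMSO (exact permutation p = 1) and -1.98 points in paclitaxel (0.3, adjusted 0.4). In GLI2 KO DMSO cells GLI2 and GLI3 were lower by like amounts, as given above.

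**Figure D3:**
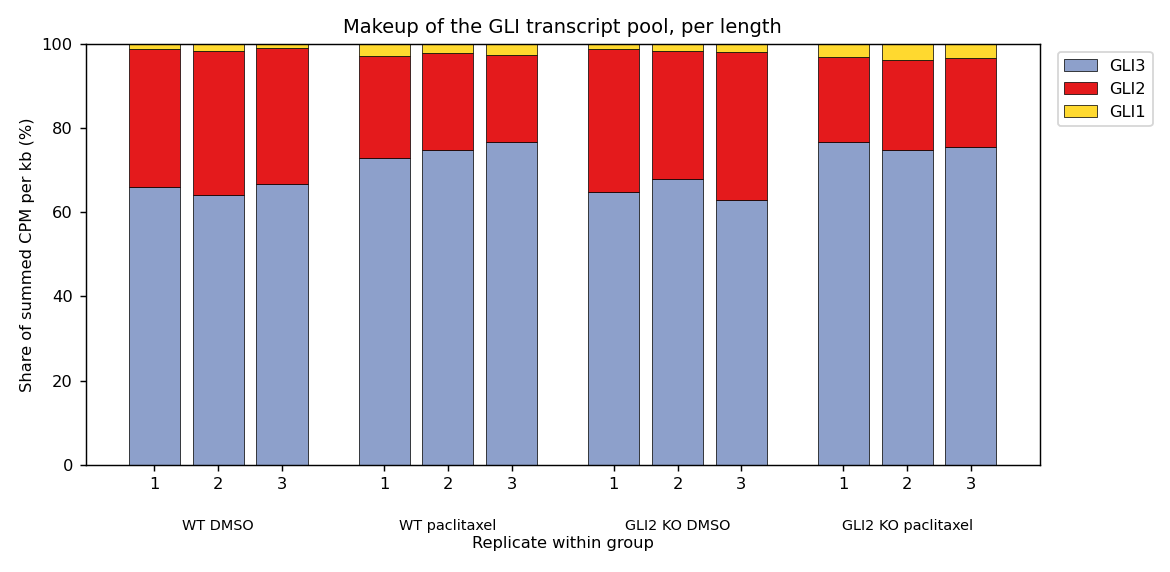
Share of GLI1, GLI2 and GLI3 in their summed CPM per kilobase of exon (percent), 1 stacked bar per sample in 4 groups of 3. The GLI2 share lies at 30.6% to 35.1% in the DMSO samples and at 20.1% to 24.4% in the paclitaxel samples.

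Of the 4 further GLI-family genes 3 were tested. GLIS2 was called higher under paclitaxel in both genotypes, by 0.34 in WT (edgeR adjusted p = 2.22e-05) and 0.16 in GLI2 KO cells (0.0188), the latter lost without GLI2 KO DMSO replicate 1 (0.12, edgeR adjusted p = 0.109) or GLI2 KO paclitaxel replicate 1 (0.14, 0.0802). GLI4 was higher in GLI2 KO cells at both treatments, by 0.31 in DMSO (edgeR adjusted p = 2.17e-05) and 0.32 in paclitaxel (1.09e-05).

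Reported GLI target genes other than the members were mostly higher under paclitaxel. Their relation to the GLI2 level was not tested. Of 29 tested, 20 were called higher and 5 lower in WT cells, with a median log2 fold change of 0.64, and 20 higher and 6 lower in GLI2 KO cells, with a median of 0.57. Among all tested genes 34.6% were called higher and 32.1% lower in WT cells, and 33.0% and 32.2% in GLI2 KO cells. The list holds genes near the floor, such as PDGFRA, at 0 to 0.00917 CPM by library totals in WT DMSO samples. The counts were 22 higher and 5 lower, and 21 higher and 6 lower, with library totals. HES1, a repressor best known as a Notch target, went from 2.59, 2.69 and 2.13 CPM to 11.2, 11.5 and 10.9 CPM in WT samples (2.18 ± 0.27, edgeR adjusted p = 9.51e-05). SNAI1, a regulator of epithelial to mesenchymal transition, went from 3.53, 3.03 and 3.03 CPM to 11.6, 11.7 and 12.7 CPM (1.90 ± 0.09, edgeR adjusted p = 1.75e-14). SPP1, which encodes the bone matrix protein osteopontin, went from 1.6, 1.5 and 1.15 CPM to 5.5, 4.87 and 4.76 CPM (1.82 ± 0.15, edgeR adjusted p = 1.33e-08). All of these rose in GLI2 KO cells as well, by 1.21 for HES1 (edgeR adjusted p = 0.0026), 1.84 for SNAI1 (6.94e-14) and 1.55 for SPP1 (3.6e-08). Several genes of this list are known targets of other pathways as well.

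PTHLH, the gene of parathyroid hormone-related protein, is named here after its values were seen. It stood at 0.637, 0.366 and 0.463 CPM in WT DMSO and 1.3, 0.976 and 1.18 CPM in WT paclitaxel samples. In GLI2 KO samples it stood at 0.692, 0.624 and 0.589 CPM in DMSO and 1.13, 1.19 and 1.44 CPM in paclitaxel. Every paclitaxel sample lay above every DMSO sample. As for SHH, the rise of PTHLH was not tested against other rare transcripts. PTHLH rose 2.32-fold in WT cells (1.21 ± 0.19, edgeR adjusted p = 3.85e-06) and 1.98-fold in GLI2 KO cells (0.99 ± 0.18, 3.67e-05). By genotype it differed by 0.35 ± 0.21 in DMSO (edgeR adjusted p = 0.19), called without WT DMSO replicate 1 (0.61, 0.0389), and by 0.12 ± 0.16 in paclitaxel (0.573).

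By genotype 15 of the 29 targets were higher and 7 lower in DMSO, with a median of 0.25, and 7 were higher and 8 lower in paclitaxel, with a median of 0.03. The shares of all tested genes were 22.0% higher and 19.6% lower in DMSO, and 23.4% and 22.2% in paclitaxel. CXCR4, a chemokine receptor linked to homing to bone marrow, stood at 0.956, 0.977 and 0.971 CPM in WT and 2.44, 2.79 and 2.23 CPM in GLI2 KO DMSO samples (1.36 ± 0.12, edgeR adjusted p = 1.35e-09). In paclitaxel CXCR4 stood at 2.19, 2.23 and 2.62 CPM in WT and 4.05, 4.72 and 4.32 CPM in GLI2 KO samples (0.89 ± 0.10, edgeR adjusted p = 7.61e-08). VEGFA, a growth factor for blood vessels, was higher in GLI2 KO cells by 0.77 in DMSO (edgeR adjusted p = 4.38e-07) and 0.75 in paclitaxel (4.77e-07). SNAI1 went the other way, lower by 0.35 in DMSO (edgeR adjusted p = 0.00997) and 0.41 in paclitaxel (0.000193). Its DMSO call was lost without GLI2 KO DMSO replicate 1 (-0.27, edgeR adjusted p = 0.0701) or WT DMSO replicate 1 (-0.27, 0.0824). HES1 was higher by 0.85 ± 0.30 in DMSO (edgeR adjusted p = 0.0491), with GLI2 KO DMSO replicate 3 at 6.9 CPM beside 3.23 and 3.13 CPM. The HES1 call was lost with factors by relative log expression (edgeR adjusted p = 0.0509), upper-quartile factors (0.057), library totals (0.0587), no filter (0.0579) and only the samples compared (0.154). Without that library HES1 was higher by 0.37 (edgeR adjusted p = 0.00275), whereas the call was lost without any one WT or GLI2 KO paclitaxel library, at 0.76 to 0.91.

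**Figure D4:**
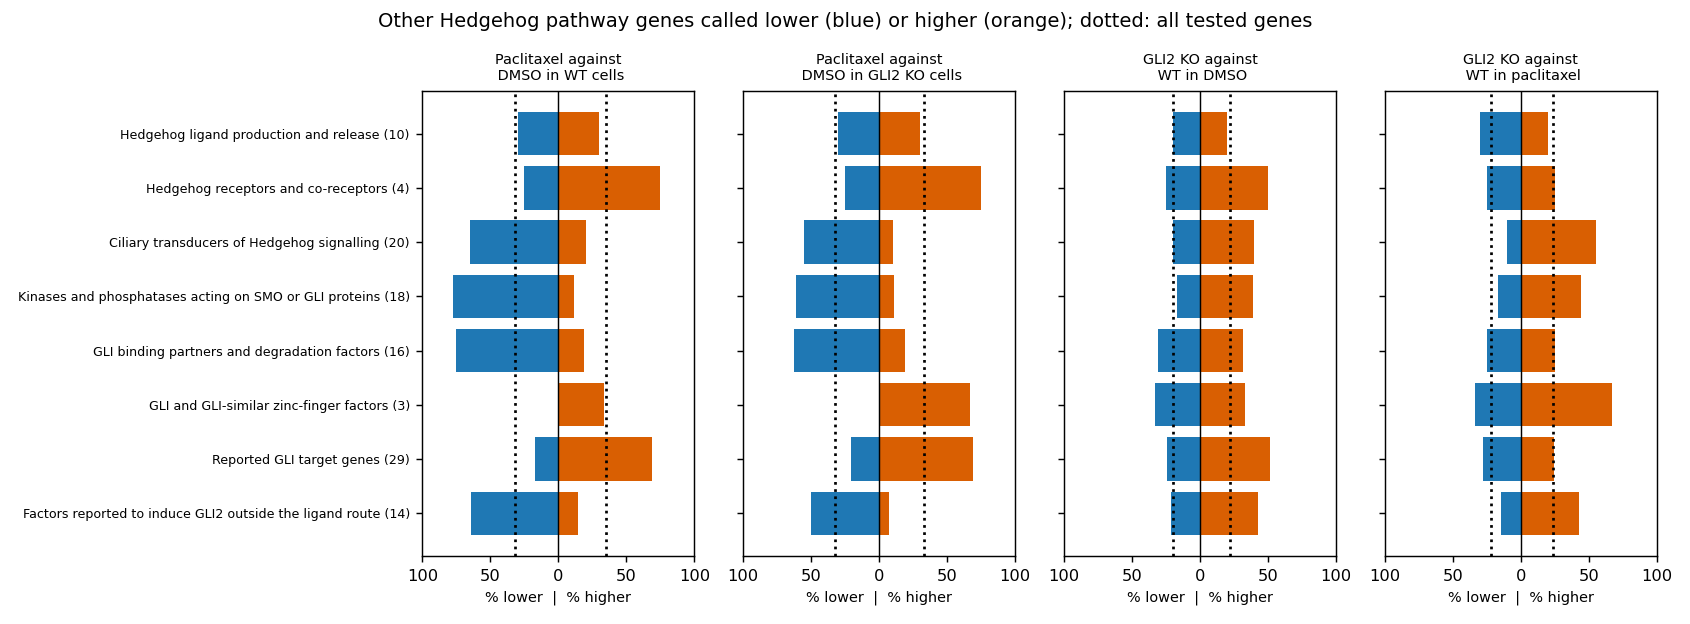
Percent of the tested genes of 8 Hedgehog gene lists, members left out, called lower (left of 0) or higher (right of 0) in 4 comparisons; the number tested follows each list name, and dotted lines give the percent of all tested genes. For paclitaxel in WT cells 20 of 29 reported GLI targets lie to the right and 13 of 20 ciliary transducers to the left.

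Factors reported to raise GLI2 outside the ligand route were tested as well, since bone-homing breast cancer cells are known to use TGF-beta and integrin signals for it. Of 14, paclitaxel called 2 higher and 9 lower in WT cells and 1 higher and 7 lower in GLI2 KO cells. With library totals these became 4 higher and 4 lower, and 9 higher and 3 lower. With TMM 34.6% of all tested genes were higher and 32.1% lower in WT cells, and 33.0% and 32.2% in GLI2 KO cells. TGFB1, the TGF-beta 1 ligand, went from 52.8, 55.1 and 53.3 CPM to 38, 37.2 and 38.2 CPM in WT samples (-0.51 ± 0.09, edgeR adjusted p = 0.000802). In GLI2 KO cells TGFB1 fell by 0.47 (edgeR adjusted p = 0.00122), from 61.2, 60.9 and 79.7 CPM in DMSO. Without GLI2 KO DMSO replicate 3 it fell by 0.33 (edgeR adjusted p = 2.86e-09). ITGB3, the integrin beta 3 subunit, stood at 8.03, 9.41 and 8.5 CPM in WT and 4.38, 4.33 and 4.53 CPM in GLI2 KO DMSO samples (-0.97 ± 0.07, edgeR adjusted p = 4.31e-11). Paclitaxel lowered ITGB3 in WT cells (-0.42 ± 0.07, edgeR adjusted p = 9.65e-06) and raised it in GLI2 KO cells (0.24 ± 0.08, 0.00862), and the difference of these effects passed (0.66 ± 0.10, 0.000142).

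The genes whose profile over the 12 samples was closest to that of GLI2, by the root mean square difference of centred log2 CPM, were SYNE2 (0.11), which encodes a nuclear envelope protein, ADCY3 (0.11), an adenylyl cyclase, and MCM5 (0.12), a subunit of the replicative helicase. The median difference over 12929 genes was 0.53. TTC21B, which encodes an intraflagellar transport protein, was closest to GPR161 (0.04, beside a median of 0.30). NAB1 was closest to GLI3 (0.04), ATF6B to SUFU (0.03), LINC01278 to PTCH1 (0.04), PHACTR1 to HHIP (0.19) and PRKAR2A-AS1 to SHH (0.12). The same genes came first with size factors by relative log expression, upper-quartile factors and library totals. These are descriptions of 12 shared libraries, with no test.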

How the data were processed

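Polyadenylated RNA of 12 samples was sequenced, and the authors deposited read counts per gene and a second table of scaled values (signal), which equalled the counts divided by 1 factor per sample to within 5.33e-15 and was not used further. Per the submitters' processing notes, Trim Galore 0.6.7, STAR, DESeq2 1.36.0 and build hg38 were used; no source used here names the counter, the annotation or the strand setting. The deposited counts, 83230948 to 109018776 per sample, were filtered with filterByExpr (minimum count 10), scaled by TMM and fitted with edgeR 4.0.16 (R 4.3.3; robust quasi-likelihood test, a mean per group over all 12 samples, 8 residual degrees of freedom). The 5 comparisons were each adjusted over 21974 genes; the approximate SE divides the absolute log2 fold change by the root of the F statistic. The script was tested on simulated data. Gene symbols matched GENCODE 29 for 93.4% of 25049 rows, and the union of exons gave lengths. Replicates were numbered in accession order and never paired.

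The members and gene lists were chosen with earlier results of these data known. Members were all named. From each list, up to 3 called genes averaging 1 CPM or more and with the largest change by drug or by genotype could be named. IHH, SCUBE2, GPC5, PTHLH, DHH and PDGFRA were added after their values were seen. The motif search used RefSeq promoters (GRCh38.p14). Alternatives were factors by relative log expression (RLE), upper-quartile factors, library totals, DESeq2 1.42.0, no filter, a minimum count of 50, only the samples compared, and leaving out each library.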

Additional observations from a re-analysis of the deposited data

Results flagged for a closer look

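Paclitaxel effects that differed between genotypes (GLI2 KO minus WT, log2 scale, edgeR's quasi-likelihood test) were found for 9 named list genes and for no member. Among all tested genes 6.56% were called higher and 6.93% lower. List genes were named for large changes in these same data, so the count of 9 does not describe the lists. GPC5 was named after its values were seen. GPC5 had the largest such difference of the 9, at -2.25 ± 0.40 (SE, adjusted p = 0.000453), with 0.0483 to 0.0977 CPM in WT DMSO samples. ITGB3 differed by 0.66 ± 0.10 (SE, adjusted p = 0.000142). Among the other genes whose effect was higher in GLI2 KO cells, GLIS3 differed by 0.33 (edgeR adjusted p = 0.000857), at 18.4, 17.7 and 18.2 CPM in WT paclitaxel and 20.1, 20 and 20.1 CPM in GLI2 KO paclitaxel samples. GRK3 differed by 0.29 (edgeR adjusted p = 0.00823), STK36, a kinase related to the fly Hedgehog kinase Fused, by 0.28 (0.000758), and TMEM67 by 0.25 (0.0082). Those lower in GLI2 KO cells were ARRB1 at -0.26 (edgeR adjusted p = 0.0404), CDON at -0.21 (0.0171) and HDAC1, a histone deacetylase, at -0.19 (0.00239). The ARRB1 call was lost with RLE factors (-0.26, edgeR adjusted p = 0.0502) and library totals (-0.25, 0.0705). It was also lost without GLI2 KO DMSO replicate 3 (-0.18, edgeR adjusted p = 0.0646), GLI2 KO paclitaxel replicate 2 (-0.25, 0.0907) or replicate 3 (-0.24, 0.0958), WT DMSO replicate 1 (-0.26, 0.0924) or replicate 3 (-0.23, 0.11), and WT paclitaxel replicate 1 (-0.24, 0.101) or replicate 3 (-0.27, 0.0912).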

How the results depend on the processing

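Of 746 alternative values for the members, 711 kept their direction and side of the threshold, 25 lost a call, 8 gained one and 2 turned, these being SUFU under paclitaxel in GLI2 KO cells (0.01 with upper-quartile factors, 0.06 with library totals). For that comparison the members called higher numbered 4 with upper-quartile factors, 4 with library totals and 1 with DESeq2 instead of 2, and those called lower 1 with library totals instead of 4. GLI2 KO against WT in paclitaxel had 1 member higher with upper-quartile factors instead of 2. Leaving out 1 library gave 1 to 2 members higher under paclitaxel in GLI2 KO cells and 0 to 2 higher in GLI2 KO against WT in paclitaxel. Of 3753 values for named list genes 3633 stayed, 88 lost a call, 29 gained one and 3 turned, all with library totals: PRKACB under paclitaxel in WT (0.14) and GLI2 KO cells (0.01), and GPC6 in GLI2 KO cells (0.01). Of 1504 list counts 135 moved by over 1.5 times. The causes were not tested, apart from the shift of scale given above. The GLI2 share with the longest transcript in place of all exons fell by 9.35 and 11.2 points under paclitaxel. The PTCH1 to SMO ratio was not run, since SMO is not analysed here, nor was the difference of drug effects with only the samples compared, which needs all 12. No paired analysis was possible because the labels give library numbers and no replicate numbers. Depth limits GLI1 most, at 14 to 45 reads per sample.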

Other observations

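The 10 tested genes on each side of a member were listed after the members' values were seen, as a description of what lies around them. Beside GLI2, 10 of 20 neighbours were called lower and 3 higher in GLI2 KO than in WT cells in DMSO, with a median of -0.27 next to -0.23 for GLI2. Among all tested genes 19.6% were lower and 22.0% higher there. Under paclitaxel the same 20 had a median of -0.10 by genotype, with 8 called lower and 1 higher, and GLI2 stood at -0.44. Of the 20 neighbours 5 lay below GLI2 there, the lowest at -0.99. Among all tested genes 22.2% were lower and 23.4% higher by genotype under paclitaxel. For the drug effect no neighbour fell as far as GLI2, whose -0.93 in WT and -1.14 in GLI2 KO cells stand beside medians of -0.04 and 0.01.

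HHIP lay above 19 of its 20 neighbours by genotype in DMSO, at 0.85 beside a median of -0.35 and a range of -2.35 to 2.38. GPR161, at -0.50, lay beside a median of -0.18, and 9 of its 20 neighbours were called lower, as were 19.6% of all tested genes. SHH rose under paclitaxel by more than 19 of 20 neighbours in WT cells and all 20 in GLI2 KO cells.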
